A study of Mus musculus with 2 samples.

Results

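TET2 binding was examined at the genes for histone lysine modifiers, the enzymes that place or remove methyl and acetyl groups on lysines of histone tails. Membership rests on the gene symbol and uses no measured value. A matching symbol does not establish activity on histones, and Setd3, for example, methylates actin. Members are the protein-coding genes of the GENCODE M21 annotation whose symbol begins with Kdm, Kmt, Hdac, Sirt, Setd, Kat or Ezh followed by a number. The rule gave 62 of the 21951 protein-coding genes, of which 26 were taken as writers (Kmt, Setd, Ezh and Kat) and 36 as erasers (Kdm, Hdac and Sirt). ChIP-seq with an antibody against TET2 was performed on adipocytes that had been differentiated in culture from stem cells of mouse inguinal white fat by IBMX, dexamethasone and insulin. The cells were grown from the stromal vascular fraction of the fat in medium with β-FGF and used at the third passage, and both libraries share this treatment. The labels give no genetic change, strain or age for them, and the number of mice behind the culture is not stated in the sources used here. There was 1 TET2 library and 1 input library, so no value below has a replicate error and no p-value is given between genes. The authors deposited 14103 peaks, each an interval with the −log10 p of its enrichment over the input, and the number of reads behind a peak is unknown from that list. A list of binding sites does not measure expression, so the adipocyte label could not be checked against marker genes.

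TET2 is a dioxygenase that oxidizes 5-methylcytosine, mainly at CpG dinucleotides, and has no DNA-binding domain of its own, so it reaches chromatin through partner proteins. Histone writers and erasers act on the protein side of the same chromatin. SET domain enzymes of the Kmt, Setd and Ezh families transfer methyl groups and Kat enzymes transfer acetyl groups, whereas the Kdm demethylases and the Hdac and Sirt deacetylases take them off. Several of them are known regulators of adipocyte differentiation.

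The TET2 peaks at these genes lay mostly in CpG-dense DNA next to a transcription start site (TSS). To show what that sequence looks like, a stretch of the peak outside every annotated exon is given for 5 genes, the Kmt, Kat, Hdac and Ezh genes with the largest promoter −log10 p of their kind and, among the demethylases, the next after Kdm3b. The Sirt7 peak held no such stretch. The stretches were read from the RefSeq assembly GRCm38.p6, 5′ to 3′ on the strand of the gene, and the capitals mark CpG dinucleotides. They lie at chr19:3768341-3768540 inside Kmt5b (plus strand, 108 to 307 bp from the TSS), at chr2:144369158-144369357 in Kat14 (plus strand, 159 to 358 bp), at chr17:56325862-56326061 before Kdm4b (plus strand, -200 to -1 bp), at chr6:91156494-91156664 before Hdac11 (plus strand, -324 to -154 bp) and at chr11:101226196-101226395 in Ezh1 (minus strand, 31 to 230 bp).
Kmt5b: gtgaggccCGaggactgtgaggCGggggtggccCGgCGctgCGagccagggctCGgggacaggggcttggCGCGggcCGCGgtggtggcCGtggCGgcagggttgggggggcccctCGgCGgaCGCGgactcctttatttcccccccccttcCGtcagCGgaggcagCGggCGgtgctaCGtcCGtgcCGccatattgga
Kat14: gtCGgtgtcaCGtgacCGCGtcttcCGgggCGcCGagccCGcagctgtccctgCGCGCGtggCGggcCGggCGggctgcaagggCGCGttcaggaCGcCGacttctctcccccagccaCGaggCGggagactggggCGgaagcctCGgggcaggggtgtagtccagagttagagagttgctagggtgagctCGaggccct
Kdm4b: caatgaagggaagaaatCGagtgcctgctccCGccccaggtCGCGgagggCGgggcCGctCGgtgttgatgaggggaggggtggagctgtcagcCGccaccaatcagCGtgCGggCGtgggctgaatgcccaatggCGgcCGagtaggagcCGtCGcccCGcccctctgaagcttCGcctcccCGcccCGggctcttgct
Hdac11: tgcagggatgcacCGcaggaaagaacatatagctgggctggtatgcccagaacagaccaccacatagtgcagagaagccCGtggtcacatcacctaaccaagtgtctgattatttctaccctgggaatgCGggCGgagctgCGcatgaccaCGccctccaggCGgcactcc
Ezh1: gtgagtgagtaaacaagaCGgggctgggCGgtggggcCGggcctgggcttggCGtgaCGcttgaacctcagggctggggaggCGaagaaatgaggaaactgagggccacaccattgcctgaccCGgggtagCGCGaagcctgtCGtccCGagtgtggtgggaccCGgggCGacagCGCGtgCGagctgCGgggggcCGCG
The stretches of Kmt5b and Kat14 hold 23 CpGs each and those of Kdm4b and Ezh1 hold 19 each, in 200 bp. The stretch of Hdac11 holds 7 in 171 bp and has a GC content of 57.3%, the lowest of the 5.

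A TET2 peak had its midpoint within 1 kb of a TSS for 20 of the 62 genes, or 32.3% (exact 95% binomial interval 20.9% to 45.3%). Among all protein-coding genes 24.6% had such a peak, which lies inside this interval. Writers had such a promoter peak in 9 of 26 cases (34.6%, 17.2% to 55.7%) and erasers in 11 of 36 (30.6%, 16.3% to 48.1%), and the intervals of both classes overlap almost entirely. Together the 20 genes had 22 promoter peaks, since Kdm2b and Kdm4b had 2 each. Binomial intervals cover counting error only, over genes rather than over libraries. Counting only peaks with a −log10 p of at least 5 left 17 genes, or 27.4% (16.9% to 40.2%), against 22.1% of all protein-coding genes. The genes lost at that threshold were Hdac7, Kmt2c and Setd1a.

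**Figure D1:**
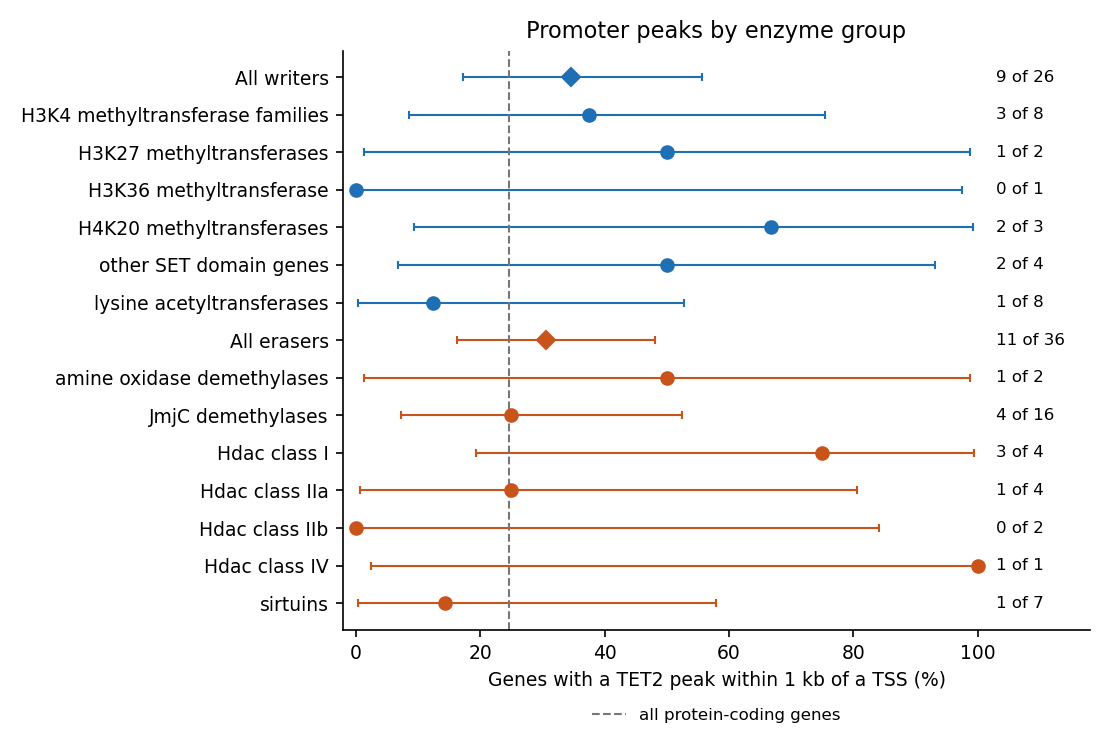
Share of genes with a TET2 peak midpoint within 1 kb of a TSS, in percent, for all writers and all erasers (diamonds) and for each enzyme group (circles), with exact 95% binomial intervals and the counts at the right. The dashed line is the share over all protein-coding genes, 24.6%, which lies inside every interval.

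Promoters of these genes are richer in CpG than most, so the comparison was repeated within promoter classes. A promoter was taken as CpG-rich where the most CpG-rich 1 kb window around a TSS of the gene had an observed to expected CpG ratio of at least 0.6 and a GC content of at least 50%. By this measure 52 of the 62 genes were CpG-rich, and 18 of those 52 had a promoter peak (34.6%, 22% to 49.1%), against 40% of the 11153 CpG-rich protein-coding genes. The order relative to the background thus turned round, from above it over all genes to below it within CpG-rich genes, and in both cases the background lay inside the interval. Of the 10 remaining genes, Hdac3 and Hdac11 had a promoter peak (20%, 2.52% to 55.6%), against 8.62% of protein-coding genes without a CpG-rich promoter. These genes also have more annotated TSSs than most, with a median of 8 against 3, and each TSS adds a window in which a peak can fall. Among CpG-rich genes with 1 to 3 TSSs a promoter peak was present in 1 of 4 members and 38.3% of all genes, with 4 to 7 TSSs in 8 of 19 (42.1%, 20.3% to 66.5%) and 39.7%, and with 8 or more TSSs in 9 of 29 (31%, 15.3% to 50.8%) and 42.9%. Members with and without a promoter peak had the same median CpG ratio, 0.825, and median GC contents of 67.1% and 60.8%. Each class describes the gene, not the TSS at the peak. Hdac7, Kmt5c and Sirt7 count as CpG-rich, but their promoter peaks, at later TSSs, had CpG ratios of 0.283, 0.434 and 0.431. The promoter peak of Hdac3 had 0.805, though that gene does not count as CpG-rich.

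**Figure D2:**
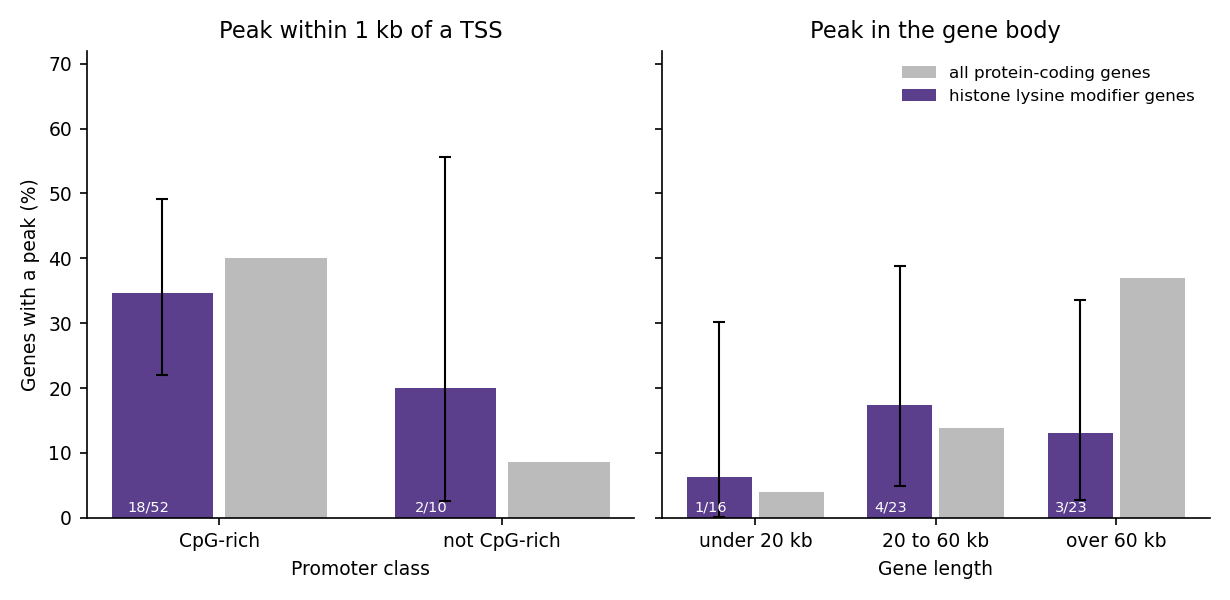
Percent of histone lysine modifier genes (purple, with exact 95% binomial intervals and counts at the foot of the bars) and of all protein-coding genes (grey) with a promoter peak by promoter class, left, and with a gene body peak by gene length, right. The interval of the members excludes the grey bar for genes over 60 kb with these gene models, where 3 of 23 members have a gene body peak against 36.9% of all such genes, but not with RefSeq models (6 of 23 against 38.6%), and it holds the grey bar in the other classes.

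Among the methyltransferase genes, 8 of 18 had a promoter peak (44.4%, 21.5% to 69.2%). The shares of all protein-coding genes, 24.6%, and of CpG-rich ones, 40%, lie inside this interval. The largest −log10 p of this class was at Kmt5b, which adds the second methyl group to lysine 20 of histone H4, with 12 for a peak at chr19:3768037-3768611 centred 91 bp downstream of the TSS. Only 2.88% of all deposited peaks had a larger value. Kmt5c, the enzyme of the further methylation of the same lysine, had a peak with a −log10 p of 9.51 at chr7:4746356-4746747. That peak is not at the start of the gene, since it lies 6.44 kb downstream of the most upstream TSS and 743 bp downstream of an internal one. Kmt5a, the monomethylating enzyme of this lysine, had no peak within 3 kb of a TSS or in the gene, and the nearest peak was 80.2 kb from a TSS.

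In the H3K4 methyltransferase families 3 of 8 genes had a promoter peak (37.5%, 8.52% to 75.5%), and all were of modest strength. The 24.6% of all protein-coding genes and the 40% of CpG-rich ones lie inside this interval. Setd1a, a catalytic subunit of the COMPASS complex that trimethylates H3K4 at promoters, had a peak with a −log10 p of 4.91. The midpoint of that peak lay in a 5′ UTR exon, 108 bp upstream of the nearest TSS but 611 bp downstream of the most upstream one. At Kmt2c and Kmt2d, which monomethylate H3K4 at enhancers, the peaks had values of 4.95 and 5.78. With the GENCODE models both lay well upstream, at -874 and -757 bp. Transcripts of other genes, not annotated as protein-coding, started nearer to them, at 590 and 652 bp. A RefSeq TSS of Kmt2d, however, lay 353 bp from the midpoint of its peak. Kmt2b, Setd1b and Setd7 had no peak in any of the positions examined.

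Of the Polycomb methyltransferases of H3K27, Ezh1 had a promoter peak and Ezh2 had none. The Ezh1 peak at chr11:101226008-101226695 spanned the TSS from -269 to 418 bp with a −log10 p of 5.54, which 67.2% of all peaks exceeded. The nearest peak to a TSS of Ezh2 was 56.1 kb away. Setd2, which trimethylates H3K36, also had no peak in any position. Of the other SET domain genes, Setd3, which methylates a histidine of actin, had the longest promoter peak of the set, 989 bp with 123 CpGs and a −log10 p of 7.05. Setd6, known for methylating the RelA subunit of NF-κB, had a peak of 8.56 centred 31 bp from its TSS. Setd4 and Setd5 had none.

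Of the acetyltransferase genes, 1 of 8 had a promoter peak (12.5%, 0.316% to 52.7%), against 24.6% of all protein-coding genes, inside the interval. The gene with the peak was Kat14, the acetyltransferase subunit of the ATAC complex. Its peak at chr2:144368840-144369364 had a −log10 p of 8.28. A TSS of the protein-coding gene Pet117 on the same strand lay 106 bp from the midpoint, 3 bp further than that of Kat14, so the peak cannot be given to either gene alone. Kat2a, Kat2b, Kat6b, Kat7 and Kat8 had no peak in any position.

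Among the demethylases 5 of 18 genes had a promoter peak (27.8%, 9.69% to 53.5%), against 24.6% of all protein-coding genes. These peaks included the peak with the largest −log10 p of all 22. That peak was at Kdm3b, a demethylase of H3K9, with a value of 12.2 and a midpoint 456 bp downstream of the TSS, within an intron. Kdm4b, which removes methyl groups from H3K9 and H3K36, had 2 peaks of unequal strength. The one at the start of the gene, chr17:56325764-56326280, had a −log10 p of 11, and the one at an internal TSS 67.9 kb further on, in a coding exon, had 4.64. Kdm7a, a demethylase of H3K9 and H3K27, had a peak of 10.5 from 350 to 892 bp downstream of its TSS, with the highest GC content of the promoter peaks, 75.3%. Kdm2b, whose CXXC domain binds unmethylated CpG islands, had a peak of 9.02 at a TSS 37.3 kb downstream of the most upstream one and a weaker peak of 5.13 near a TSS of a noncoding transcript inside the gene. Kdm1b, a flavin-dependent demethylase of H3K4, had a peak of 5.65 at a start shared with Tpmt on the other strand, while its relative Kdm1a had no peak.

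No member of the Kdm5 family, the H3K4 demethylases Kdm5a to Kdm5d, had a peak in any position, against 36.4% of all protein-coding genes. So small a family cannot be set apart from that share. The nearest peak was 3.38 kb from a TSS of Kdm5b, just outside the gene and the 3 kb window. Kdm2a, Kdm3a, Kdm4c, Kdm4d, Kdm6a and Kdm8 had none either. The 5 members on the sex chromosomes, Hdac6, Hdac8, Kdm5c and Kdm6a on X and Kdm5d on Y, all lacked a peak in any position. For promoter peaks alone this allows a share of up to 52.2% (exact 95% binomial interval). A promoter peak was present at 5.84% of the 1131 protein-coding genes of X and Y, against 25.6% of those on the autosomes.

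Of the Hdac genes, 5 of 11 carried a promoter peak (45.5%, 16.7% to 76.6%). The 24.6% of all protein-coding genes and the 40% of CpG-rich ones lie inside this interval. In class I, Hdac1, Hdac2 and Hdac3, deacetylases of the NuRD, Sin3, CoREST and NCoR complexes, had a promoter peak and the X-linked Hdac8 did not. The peak at Hdac1, chr4:129542355-129543001, was centred 13 bp from the TSS with a −log10 p of 5.19. That of Hdac2, chr10:36974432-36975014, was centred 153 bp downstream with 6.12. At Hdac3 the peak, with 6.05, was 928 bp upstream and only 130 bp from the TSS of Rell2, so it sat at the promoter of the neighbouring gene. Hdac11, the only class IV enzyme, had the strongest peak of the family, 10.5 at chr6:91156494-91156990, across its TSS. In class IIa, the signal-responsive deacetylases, Hdac7 had a peak of 4.56 at an internal TSS 36.3 kb downstream of the most upstream one, the lowest value of the 22. Hdac6, Hdac8 and Hdac9 had no peak in any position.

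The sirtuins, the NAD-dependent deacetylases, had a promoter peak in 1 of 7 genes (14.3%, 0.361% to 57.9%). The share of all protein-coding genes, 24.6%, lies inside this interval. The 1 case rests on a short transcript. The peak of Sirt7, with a −log10 p of 6.73, lay in the 3′ UTR and 678 bp downstream of the start of a noncoding transcript. With protein-coding transcripts alone no TSS of Sirt7 was within 1 kb, and the nearest was 2286 bp away. Sirt1 to Sirt6 had no peak in any position.

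**Figure D3:**
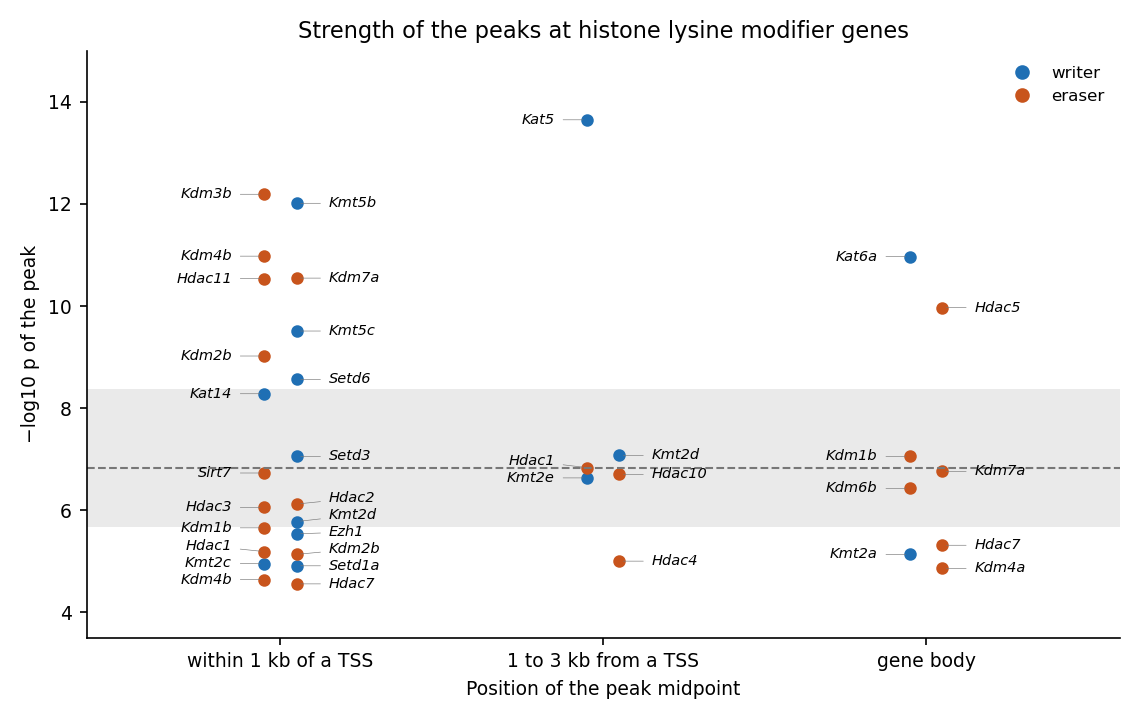
The −log10 p of each TET2 peak at a histone lysine modifier gene, by position of the midpoint relative to the gene's own TSSs, in blue for writers and orange for erasers. The dashed line and grey band are the median, 6.83, and the middle 50% of all peaks within 1 kb of a protein-coding TSS, and the members' promoter peaks run from 4.56 to 12.2.

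The strength of these peaks was ordinary for promoters in this library. The 22 promoter peaks had a median −log10 p of 6.42, with a range of 4.56 to 12.2 and a middle 50% of 5.28 to 9.39, against a median of 6.83 (5.68 to 8.37) for the 5170 peaks within 1 kb of any protein-coding TSS. The median was 7.05 for the 9 peaks of writers and 6.12 for the 13 of erasers, and their ranges, 4.91 to 12 and 4.56 to 12.2, overlapped almost fully. Of the 22, 10 were above the median of all promoter peaks. Values of at least 10 were found for 5 of the 22 peaks, at Kdm3b, Kmt5b, Kdm4b, Kdm7a and Hdac11. Values under 5, the cutoff stated for peak calling, were found for 4 of the 22, at Kdm4b, Hdac7, Setd1a and Kmt2c. Over all protein-coding promoter peaks 10.9% were under 5, and the share of at least 10 is not given here. Counts this small do not set the members apart from other promoter peaks.

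**Figure D4:**
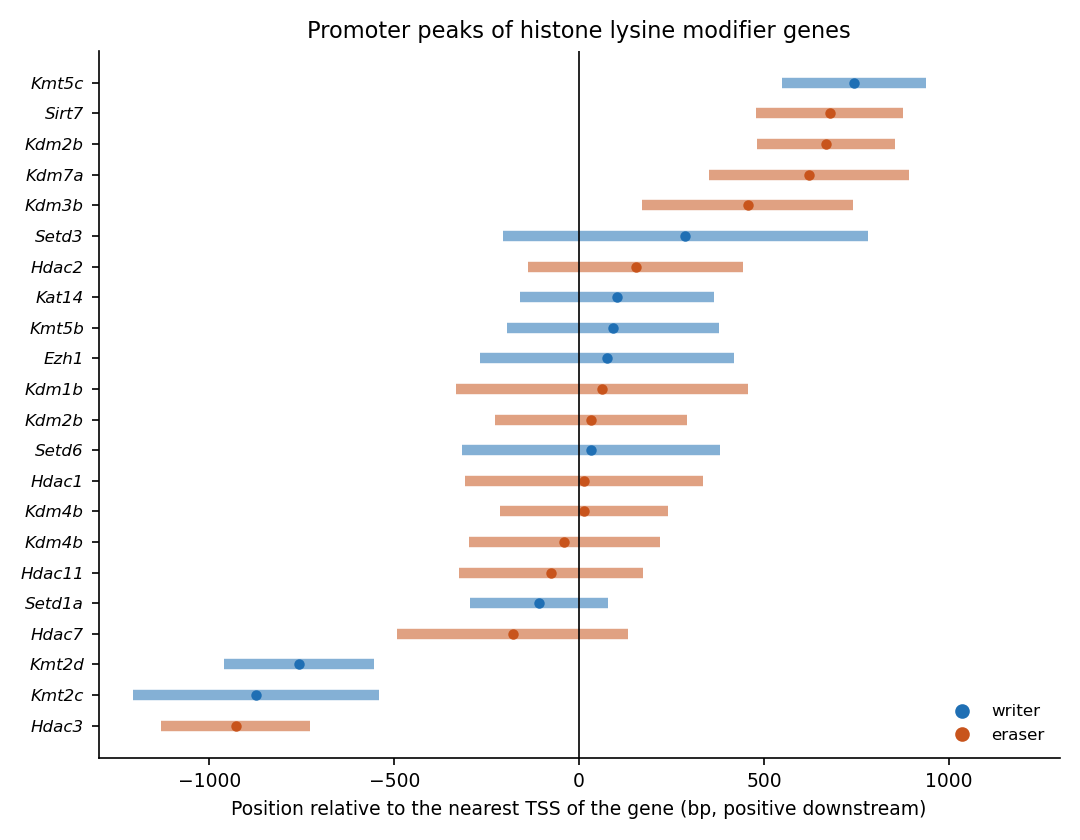
Extent (bars) and midpoint (dots) of the 22 promoter peaks, in bp from the nearest GENCODE TSS of the gene. Writers are in blue and erasers in orange, ordered by midpoint. Bars of 14 peaks cross the TSS, and the midpoints of Hdac3, Kmt2c and Kmt2d lie over 500 bp upstream.

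Most promoter peaks sat on or just past the TSS. The midpoint was within 200 bp of it for 13 of the 22 (59.1%, against 56.1% of all protein-coding promoter peaks), and the peak covered the TSS in 14 cases. Midpoints were upstream in 7 cases, or 31.8%, against 30.9% of all promoter peaks, and the median lay 47 bp downstream. For 16 of the 22 the TSS concerned was within 1 kb of the most upstream one of the gene, and for the other 6, at Kdm2b (both peaks), Kdm4b, Hdac7, Kmt5c and Sirt7, it was a later one. A RefSeq TSS of the gene was within 1 kb of 17 of the 22 peaks. By location, 6 midpoints fell in 5′ UTR exons, 5 in coding exons, 5 in introns, 4 outside the gene, 1 in a 3′ UTR and 1 in an exon that is a UTR in some transcripts. By the GENCODE models the midpoint was nearer to a TSS of another gene in 3 cases, Hdac3, Kmt2c and Kmt2d. A TSS of another protein-coding gene was within 1 kb in 5, at Hdac3 (Rell2), Kat14 (Pet117), Kdm1b (Tpmt), Setd3 (Ccnk) and Sirt7 (Pcyt2). At the edge of the window, Hdac3 at -928 bp and Kmt2c at -874 bp were just inside 1 kb, and Kmt2e at 1141 bp and Hdac4 at 1350 bp just outside.

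A peak 1 to 3 kb from the nearest TSS of the gene was found for 6 of the 62 genes (9.68%, 3.63% to 19.9%), against 5.05% of all protein-coding genes. The peak at Kat5, the acetyltransferase of the NuA4 complex, had the largest −log10 p of all 36 peaks at these genes, 13.6, but it belonged by position to the neighbour. It lay 915 bp past the end of Kat5 and 124 bp from the TSS of Rnaseh2c. The peak counted for Hdac10 was likewise 317 bp past its end and 97 bp from the TSS of Tubgcp6. That of Hdac1, 1410 bp past the end of the gene, was 1113 bp from the TSS of Marcksl1. The other 3 were inside the gene, in an intron of Hdac4, a coding exon of Kmt2e and the 3′ UTR of Kmt2d, with −log10 p values of 5, 6.63 and 7.07. The outermost of the 6 were Kmt2d at 2976 bp and Hdac1 at 2824 bp. Among peaks inside a gene body, the nearest beyond 3 kb were Hdac7 at 4113 bp and Kdm6b at 4326 bp.

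Gene body peaks, over 3 kb from every TSS of the gene, were present in 8 of the 62 genes (12.9%, 5.74% to 23.9%), against 13% of all protein-coding genes. Each of these genes had 1. The largest −log10 p was 11 in an intron of Kat6a, an acetyltransferase of histone H3, followed by 9.97 in a coding exon of Hdac5, a class IIa deacetylase. The remaining values were 7.05 at Kdm1b, 6.76 at Kdm7a, 6.43 at Kdm6b, 5.31 at Hdac7, 5.13 at Kmt2a and 4.86 at Kdm4a. Those of Kat6a and Kdm6b lay 1565 and 1624 bp from the TSS of another gene. Gene length decides how much body there is to hold a peak, so genes were split by length. Under 20 kb, 1 of 16 members had a body peak (6.25%, 0.158% to 30.2%), against 4% of all such genes, and from 20 to 60 kb, 4 of 23 did (17.4%, 4.95% to 38.8%), against 13.8%.

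Over 60 kb, 3 of 23 members had a body peak (13%, 2.78% to 33.6%), against 36.9% of the 4235 protein-coding genes of that length, just outside the interval. This difference depended on the gene models and the peak list. With RefSeq models Kdm2b, Kdm4b and Kmt2e joined, giving 6 of 23 (26.1%, 10.2% to 48.4%) against 38.6%. With protein-coding transcripts alone Kdm2b and Kmt2e joined, giving 5 of 23 (21.7%, 7.46% to 43.7%) against 38.7%. With peaks of a −log10 p of at least 5 the members stayed at 3 and the background was 31.8%. In these 3 cases the background lay inside the interval, while counting any base of a peak left 3 of 23 against 36.6%. The 3 genes with GENCODE models were Kat6a, Kmt2a and Kdm7a, whereas long genes such as Hdac9 at 870 kb, Hdac4 at 267 kb, Kmt2c at 227 kb and Kat6b at 191 kb had none. The long members were shorter than the other genes of that class, with a median of 83.7 against 113 kb, and had more TSSs, 8 against 5, each of which takes the 3 kb around it out of the body. The part of length and TSS number in the difference was not tested. A peak in any position was present in 10 of the 23 (43.5%, 23.2% to 65.5%), against 61.4% of all genes over 60 kb, which is inside the interval.

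Counting all 3 positions, 29 of the 62 genes had a peak (46.8%, 34% to 59.9%), against 36.4% of protein-coding genes, with 13 of 26 writers and 16 of 36 erasers. There were 22 genes with 1 peak, 7 with 2 and 33 with none. The 7 were Hdac1, Hdac7, Kdm1b, Kdm2b, Kdm4b, Kdm7a and Kmt2d. Of these 6 are erasers, as are 36 of the 62 members, and the share of all protein-coding genes with 2 peaks is not given here. For the 33 genes without a peak the nearest was 3.38 to 534 kb from a TSS, with a median of 41.9 kb, and the farthest was that of the X-linked Kdm6a.

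**Figure D5:**
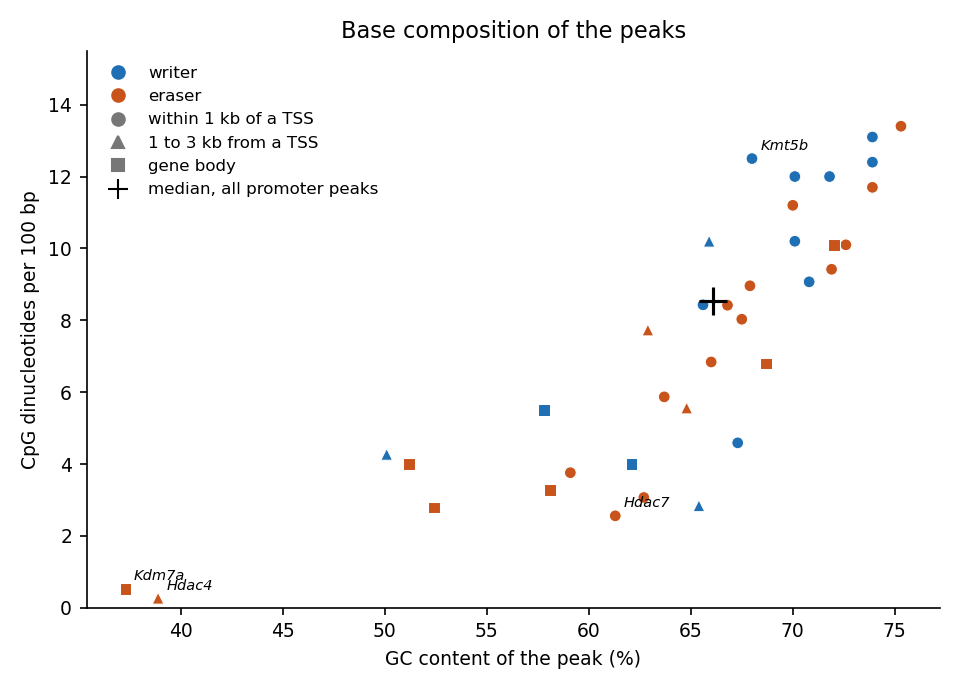
CpG dinucleotides per 100 bp against GC content, in percent, for each of the 36 peaks, in blue for writers and orange for erasers, by position (circles, within 1 kb of a TSS; triangles, 1 to 3 kb; squares, gene body). The cross marks the medians of all peaks within 1 kb of a protein-coding TSS, 66.1% and 8.55, and the peaks of Hdac4 (1 to 3 kb) and Kdm7a (gene body) lie apart at under 40% GC.

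The promoter peaks were CpG-dense DNA, as were promoter peaks in general. They held a median of 9.25 CpGs per 100 bp with a GC content of 69%, against 8.55 and 66.1% over all protein-coding promoter peaks. The observed to expected CpG ratio had a median of 0.808 against 0.789. It was lowest at Hdac7 (0.283), at the internal peak of Kdm4b (0.313) and at Sirt7 (0.431) and Kmt5c (0.434), all at later TSSs, and highest at Kmt5b (1.10), whose sequence is shown above. Peaks 1 to 3 kb from a TSS had a median of 4.91 CpGs per 100 bp and gene body peaks a median of 4. The extremes were the peak in Hdac4, with 1 CpG in 375 bp, and the body peak of Kdm7a, with 2 in 375 bp. Bases masked as repeats made up a median of 4.47% of the promoter peaks and at most 19.7%. The body peak of Hdac7 was 50.1% repeat.

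Short motifs were searched on both strands within 100 bp of the midpoint of the 22 promoter peaks. GGGCGG, the core of the SP1 site, was present in 13 (59.1%, 36.4% to 79.3%), against 47% of the 5170 protein-coding promoter peaks, and Hdac1 had the most matches, 5. GCCNNNGGC for AP-2, which can overlap the former, was in 5 (22.7%, 7.82% to 45.4%) against 27.9%, at Hdac1, Hdac2, Hdac7, Kdm1b and Kdm4b. TTGCNNAA for C/EBP was found in 1 peak (4.55%, 0.115% to 22.8%), against 2.55%. That peak was the weaker one of Kdm2b, near the TSS of a noncoding transcript inside the gene, not the peak of 9.02. CCGGAAG for ETS factors was found only at Kat14 (6.23% of all) and GCATGCGC for NRF1 only at Kmt2c (1.35% of all). TGACGTCA for CREB was found in none of the 22, which allows up to 15.4%, against 0.696%. Every background share lies inside the interval of the members, and a match describes letters in the sequence, not a bound factor.

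Genes of the same pathways that fall outside the naming rule were counted in the same way. Of 21 other writers, 5 had a promoter peak (23.8%, 8.22% to 47.2%), namely Ehmt2, Setdb2, Nsd1, Ep300 and Hat1, with the largest −log10 p, 9.27, at the acetyltransferase Ep300. Of 9 other erasers, 3 had one (33.3%, 7.49% to 70.1%), Jmjd1c, Jmjd6 and Riox1, and the largest value, 10.9, was at Riox1. Of 25 subunits of the complexes in which these enzymes work, 12 had one (48%, 27.8% to 68.7%). That interval lies above the 24.6% of all protein-coding genes, but 24 of the 25 have a CpG-rich promoter, and among those 24 the share was 50% (29.1% to 70.9%), which holds the 40% of all CpG-rich genes. They included Eed (8.51) and Jarid2 (8.28) of the Polycomb repressive complex, Rcor1 (7.21), Sin3a (7.34), Mta2 (6.94) and Ncor1 (5.19) of the deacetylase corepressors, and Dpy30 (6.24) of COMPASS, with Rbbp4, Sin3b and Brpf1 besides. Hcfc1, a COMPASS partner on the X chromosome, had the lowest value, 3.86. Jarid2 also had 3 gene body peaks.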

How the data were processed

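TET2 ChIP and input libraries came from adipocytes differentiated in vitro from inguinal adipose-derived stem cells. Per the methods and the submitters' processing notes, the authors removed adapters and poor reads, aligned the rest with bowtie and called TET2 peaks over input with MACS2 2.1.0. They deposited intervals and the −log10 p of each peak. The notes name mm10 (GRCm38) and the methods GRCm39, and coordinates were used on GRCm38 without conversion. Start and end were read as counted from 1, both included. Here each peak was placed by its midpoint against all GENCODE M21 transcripts, first within 1 kb of the nearest TSS of the gene, then within 3 kb, then in the gene body. Every member with a promoter peak was named with its values, and every member without a peak by name. The gene families and lists were chosen with earlier results of these data known. Shares have exact 95% binomial intervals. Placement was tested on simulated data. Python 3.11.15, pandas 2.3.3, scipy 1.17.1 and pysam 0.24.0 were used. The peak list gives no read depth, so the precision of single peaks is unknown. The study states a p-value cutoff equal to a −log10 p of 5, yet 15.5% of the deposited values are under 5, and why they are listed is not given in the sources used here. The input library was not analysed on its own.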

Additional observations from a re-analysis of the deposited data

How the results depend on the processing

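No paired analysis was possible because the TET2 and input samples are single libraries, with no groups to pair. Of the 44 recomputed values, 34 stayed within 1.5 times the reported value and 10 moved further. With peaks of −log10 p of at least 10, 5 genes kept a promoter peak (1 writer and 4 erasers), 1 gene had a peak at 1 to 3 kb and 1 a gene body peak, fewer by construction. With RefSeq gene models 2 genes had a peak at 1 to 3 kb and 14 a gene body peak, against 6 and 8 with GENCODE, and 17 of the 20 genes kept their promoter peak, without Hdac7, Kmt5c and Sirt7. The cause was not tested. Of the members over 60 kb, 6 had a gene body peak with RefSeq models and 5 with protein-coding transcripts, against 3, and with both the background share then lay inside the members' interval (alternatives chosen after seeing the data). From the most upstream TSS of each gene the median midpoint lay at 350 bp, against 47 bp from the nearest. A promoter window of 500 bp kept 14 of the 20 genes, one of 2 kb added Hdac4, Kat5 and Kmt2e, and peaks whose nearest TSS of any gene was that of the member left 17.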
